A study of Mus musculus with 6 samples.

Results

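The genes of ceramide and sphingolipid metabolism, together with the 2 adiponectin receptors, were described in hypoxic mouse heart cells with and without fibroblast growth factor 21 (FGF21). The 37 genes were taken by name and not by a cut on their values, but earlier results of these data were known. Of them, 36 had a row of the array that the platform annotation pairs with 1 gene symbol, of 22180 genes named in all. Cers1, a ceramide synthase gene, shares its row with Gdf1 and was not analysed here. Where a gene had several rows, the brightest by its mean across the arrays stood for it.

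The cells were cultures enriched for cardiomyocytes from hearts of 1-day-old C57BL/6 mice, and each of the 6 samples was hybridised to 1 Affymetrix Mouse Gene 2.0 ST array. All 6 spent 12 h in hypoxia, in a gas of 2% oxygen, 5% CO2 and 93% N2. The 3 FGF21 samples received FGF21 at 1 µg/ml, and the 3 controls did not. The study asked which genes respond to FGF21 when such cells lack oxygen. Because both groups were hypoxic, the effect of hypoxia itself was not measured.

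The titles call the samples biological replicates, but nothing says whether they came from separate litters or cultures. The p-values therefore measure the spread between these arrays, which may be partly technical. Values are log2 expression after robust multi-array averaging (RMA), and every difference is FGF21 minus control on that scale. Array medians were 5.76 to 5.79 with FGF21 and 5.81 to 5.83 without, so a small shift goes with the group. The 10 cardiomyocyte markers that were looked up stood above the median of every array, and so did the 10 fibroblast markers and the 10 smooth muscle and pericyte markers, so the cultures were mixed.

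Ceramide is built on a backbone of serine and palmitate joined in the endoplasmic reticulum, and it is the branch point from which sphingomyelin, glycosphingolipids, ceramide phosphate and sphingosine are made. Ceramidases release sphingosine, which sphingosine kinases turn into sphingosine 1-phosphate (S1P), a lipid that leaves the cell and signals through its own receptors. In the heart, ceramide is known as a lipid that builds up under metabolic stress, and S1P for its protective signalling. The adiponectin receptors belong to this map because ceramidase activity is attributed to them, and FGF21 is known to raise adiponectin in the circulation of mice.

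No member passed the test across the genome. Limma gave 0 of 36 members an adjusted p under 0.05, as it did for 0% of all 22180 genes, and the lowest adjusted p of a member was 0.329, for Sgms2. At an unadjusted p under 0.05 there were 5 members (13.9%), against 11.7% of all genes, so the share lay close to the background. Of these, 4 were higher with FGF21 (11.1%, against 6.59% of all genes): the sphingomyelin synthase gene Sgms2, the acid ceramidase gene Asah1, Ormdl1, which encodes an inhibitor of the first enzyme, and the neutral sphingomyelinase gene Smpd3. The other, the alkaline ceramidase gene Acer2, was lower (2.78%, against 5.11%). Median centring of the arrays gave 7 higher and 0 lower, with 13.1% of all genes under 0.05 in either direction. A second quantile normalization gave 2 and 2, with 9.66% of all genes. Without FGF21 replicate 2 the count was 1 (7.71% of all genes). That member was Smpd4, and none of the 5 kept an unadjusted p under 0.05. The count was 2 without control replicate 1 (Sgms2 and Cerk, with 9.99% of all genes). It was 2 without control replicate 2 (Asah1 and Sgms2, with 12.2%).

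Differences were small in the rows used for the members. The largest fold among them was 1.14, for Ormdl1. Of the 36 members, 21 were higher and 15 lower with FGF21; the median difference was 0.03, with quartiles of -0.06 and 0.10, beside a median of -0.01 and quartiles of -0.08 and 0.07 over all genes. The members' median was 0.00419 without control replicate 3 and 0.0205 without FGF21 replicate 3. With genes below the median of all gene means left out, 31 of the 36 members remained. The medians were then 0.0555 for the members and 0.036 for all genes, so brighter genes as a whole leaned higher. Groups did not overlap for 7 members (19.4%, against 17.1% of all genes), 6 of them higher (16.7%, against 8.99%) and 1 lower (2.78%, against 8.14%). With the dim genes left out, this held for 7 of 31 members, against 21% of all genes. In that fit 5 of 31 members had an unadjusted limma p under 0.05, against 15.3% of all genes.

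The arrays were precise enough to bound these differences. Standard errors (SE) of the members ran from 0.0611 for Sgms2 to 0.106 for Acer3. The 95% interval lay inside a 1.3-fold change in either direction for each of the 36 members, and inside 1.25-fold for 31. The other 5 were Ormdl1, Acer1, Acer2, Acer3 and S1pr1, and the widest bound was 1.28-fold, for Acer3. These are intervals for single genes, each from the row used for the gene. They do not cover second rows, which differed by 0.40 for Sgpp1, 0.24 for Cers2 and -0.03 for Smpd1. RMA compresses the differences of dim genes, and 5 members (Sptlc3, Degs2, Acer1, Acer3 and Sphk1) had means below the median of all gene means, 6.19, so for them the bound is the least informative.

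**Figure D1:**
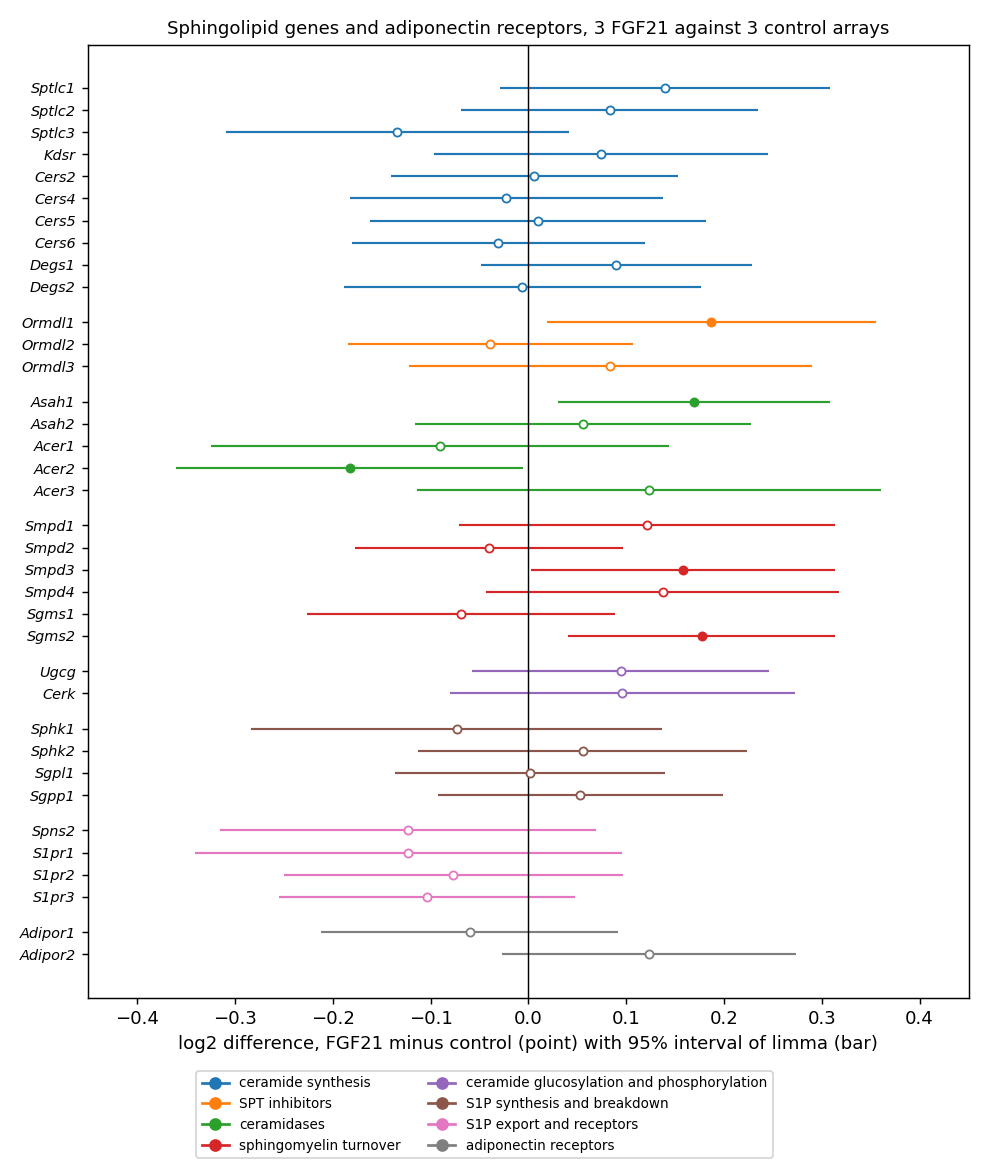
Log2 difference of each of the 36 measured genes (points) with its 95% interval from limma (bars), grouped and coloured by role; filled points mark an unadjusted p under 0.05. No point lies beyond 0.19 in either direction, 5 points are filled, and all 4 genes of S1P export and reception lie left of 0.

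**Figure D2:**
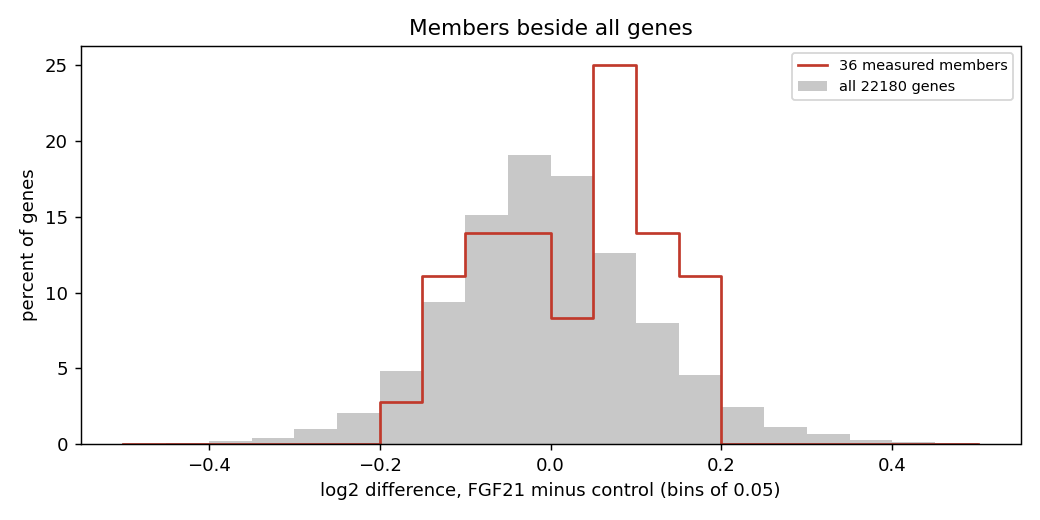
Share of genes in bins of the log2 difference, for all 22180 genes (grey bars) and for the 36 measured members (red line); genes beyond the plotted range are not shown. The members lie within the bulk of all genes, with a median of 0.03 against -0.01. With genes below the median of all gene means left out, the medians were 0.0555 and 0.036.

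Because SREBP factors drive sterol and fatty acid genes through a sterol regulatory element, the core letters CACCCCAC of that element were looked up on both strands of the promoters, to show which members carry them. RefSeq windows (GRCm38.p6) from 250 bases before to 50 after a start were held for 34 of the 37 genes. No window was held for Asah1, Smpd3 and S1pr1. A match stood in a window of 2 of the 34, Adipor1 and Sgms1, against 3.30% of all 27025 genes with a window and 2.87% of all windows. These are the windows that hold it, chr1:134415128-134415427 on the plus strand for Adipor1 and chr19:32388463-32388762 on the minus strand for Sgms1, each among the windows of its gene, with the match in capitals.
Adipor1: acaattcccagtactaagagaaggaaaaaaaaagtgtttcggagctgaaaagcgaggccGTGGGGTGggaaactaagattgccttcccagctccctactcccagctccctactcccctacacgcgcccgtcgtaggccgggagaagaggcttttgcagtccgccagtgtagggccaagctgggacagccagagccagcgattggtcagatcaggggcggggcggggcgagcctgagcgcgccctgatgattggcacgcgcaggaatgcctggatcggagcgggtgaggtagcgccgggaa
Sgms1: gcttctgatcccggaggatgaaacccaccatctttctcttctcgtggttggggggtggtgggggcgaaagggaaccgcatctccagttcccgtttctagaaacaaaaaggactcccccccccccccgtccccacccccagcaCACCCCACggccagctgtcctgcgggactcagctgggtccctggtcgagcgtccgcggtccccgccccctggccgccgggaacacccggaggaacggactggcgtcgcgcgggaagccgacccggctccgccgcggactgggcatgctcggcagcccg

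In Adipor1 the match lies on the reverse strand and begins 191 bases before the start, and in Sgms1 it lies on the forward strand and begins 108 bases before. Both genes had differences below 0 and overlapping groups, at -0.06 for Adipor1 and -0.07 for Sgms1. The E-box CACGTG, bound by several helix-loop-helix factors, stood in windows of 6 of the 34 genes, Cers2, Cers6, Degs1, Sgms2, Smpd2 and Sphk1, against 8.09% of all genes. The longer TCACGTGA, which contains the E-box and is the core of the element bound by the lysosome regulator TFEB, was in 0 of the 34, against 1.12% of all genes. Asah1, the lysosomal ceramidase gene, had no window and was not searched for any of these letters. Matches are letters in a window and not measured binding.

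De novo synthesis of ceramide showed no member past an unadjusted p of 0.05. Of 10 measured genes, 6 were higher and 4 lower with FGF21, with a median of 0.01. Serine palmitoyltransferase, the first and rate-limiting enzyme, is built from the shared subunit Sptlc1 and a partner, Sptlc2 or Sptlc3. Sptlc1 read 7.16, 7.00 and 6.94 in FGF21 replicates 1 to 3 and 6.83, 6.90 and 6.96 in the controls. The groups overlap, with control replicate 3 above FGF21 replicate 3, and the difference was 0.14 ± 0.08 (SE, limma p of 0.0955), or 0.0771 without FGF21 replicate 1. Sptlc2, the partner subunit that makes the common backbone, read 10.24, 10.10 and 10.18 against 10.01, 10.12 and 10.13, a difference of 0.08.

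Sptlc3, the partner that accepts shorter acyl chains, pointed the other way and was dim. Its values were 5.37, 5.28 and 5.45 with FGF21 and 5.42, 5.44 and 5.63 without, a difference of -0.13 ± 0.08 (SE, limma p of 0.12). Control replicate 3 was the high array, and without it the difference was -0.0676 (limma p of 0.401). Kdsr, the reductase of the next step, differed by 0.07.

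The ceramide synthases attach fatty acids of different length, and the 4 measured among the 37 genes had differences between -0.03 and 0.01. Cers2, which prefers very long chains, differed by 0.01, Cers4 by -0.02, Cers5 by 0.01 and Cers6 by -0.03. Cers3, a dim synthase gene outside the 37, differed by -0.02. Cers6, which makes ceramide with the palmitoyl chain, had a mean of 9.91 ± 0.0308 (SD, n = 3) under FGF21 and of 9.94 ± 0.0864 in controls, and its 95% interval of -0.18 to 0.12 bounds the change. A second, dimmer row of Cers2 differed by 0.24 (limma p of 0.0603), so the rows of this gene do not match.

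Degs1, the desaturase that completes ceramide, read 8.80, 8.82 and 8.73 with FGF21 and 8.68, 8.73 and 8.66 without. Its groups met at 8.73, and the difference was 0.09 ± 0.06 (SE, limma p of 0.177), or 0.0326 after a second quantile normalization. Degs2, which also makes phytoceramide, differed by -0.01.

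ORMDL proteins sit on serine palmitoyltransferase and hold it back when ceramide is plentiful. Ormdl1 read 6.33, 6.38 and 6.52 with FGF21 and 6.13, 6.24 and 6.30 without, and all 3 FGF21 arrays lay above all 3 controls. The difference was 0.19 ± 0.08 (SE, limma p of 0.0329, adjusted p of 0.385). It kept an unadjusted p under 0.05 in 2 of the 6 fits that leave out 1 array, the exceptions being those without FGF21 replicate 2 or 3 and without control replicate 1 or 2. The other 2 family members showed smaller differences, at -0.04 for Ormdl2 and 0.08 for Ormdl3, with both groups overlapping.

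Ceramidases, which cleave ceramide to sphingosine, did not share a direction: 3 were higher and 2 lower. Asah1, the acid ceramidase of lysosomes, read 10.29, 10.36 and 10.32 with FGF21 and 10.11, 10.21 and 10.14 without. The groups do not overlap, and the difference was 0.17 ± 0.06 (SE, limma p of 0.0217, adjusted p of 0.346), with 4 of 6 fits that leave out 1 array still under 0.05, the exceptions being those without FGF21 replicate 2 and without control replicate 1.

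Acer2, the alkaline ceramidase of the Golgi, read 7.07, 7.12 and 7.20 with FGF21 against 7.44, 7.32 and 7.18 without. Control replicate 3 lay between the FGF21 arrays, so the groups overlap. The difference of -0.18 ± 0.08 (SE, limma p of 0.044, adjusted p of 0.411) weakened to -0.118 without control replicate 1 and was under 0.05 in 2 of the 6 fits that leave out 1 array, those without FGF21 replicate 3 or control replicate 3. The neutral ceramidase gene Asah2 differed by 0.06. The dim alkaline ceramidase genes Acer1 and Acer3 differed by -0.09 and 0.12. Acer3 differed by 0.000434 without control replicate 1 and by 0.229 without control replicate 3.

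Sphingomyelin is made from ceramide by sphingomyelin synthases and returned to it by sphingomyelinases, and 4 of these 6 genes were higher with FGF21, with a median of 0.13. The list median was 0.0629 without FGF21 replicate 1. Sgms2, the synthase of the plasma membrane, had the smallest p of all members. It read 8.25, 8.34 and 8.30 with FGF21 and 8.12, 8.10 and 8.14 without, a gap between groups with the lowest FGF21 array above the highest control. The difference was 0.18 ± 0.06 (SE, limma p of 0.0161, adjusted p of 0.329), a fold of 1.13 with a 95% interval of 1.03 to 1.24. It remained under an unadjusted p of 0.05 in 5 of the 6 fits that leave out 1 array, the exception being the fit without FGF21 replicate 2, and was 0.112 after a second quantile normalization. Sgms1, the Golgi synthase, differed by -0.07 (95% interval -0.23 to 0.09).

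Among the sphingomyelinases, Smpd3, the neutral enzyme of membranes, read 7.15, 7.25 and 7.09 with FGF21 and 6.93, 7.01 and 7.07 without. The groups just separate, and the difference was 0.16 ± 0.07 (SE, limma p of 0.0465, adjusted p of 0.419), under 0.05 in 2 of the 6 fits that leave out 1 array, those without FGF21 replicate 3 or control replicate 3. Smpd1, the acid enzyme of lysosomes, read 8.34, 8.13 and 8.07 against 8.17, 8.03 and 7.98. FGF21 replicate 1 was the high array, and the difference of 0.12 ± 0.09 (SE, limma p of 0.191) was 0.0423 without it. A second row of Smpd1 differed by -0.03.

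Smpd4, another neutral sphingomyelinase gene, read 7.57, 7.29 and 7.52 against 7.35, 7.27 and 7.34. FGF21 replicate 2 lay among the controls, and the difference was 0.14 ± 0.08 (SE, limma p of 0.121), or 0.0834 without FGF21 replicate 1 and 0.221 without FGF21 replicate 2. Smpd2 differed by -0.04, with groups that do not overlap by a margin smaller than any SE of the members.

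**Figure D3:**
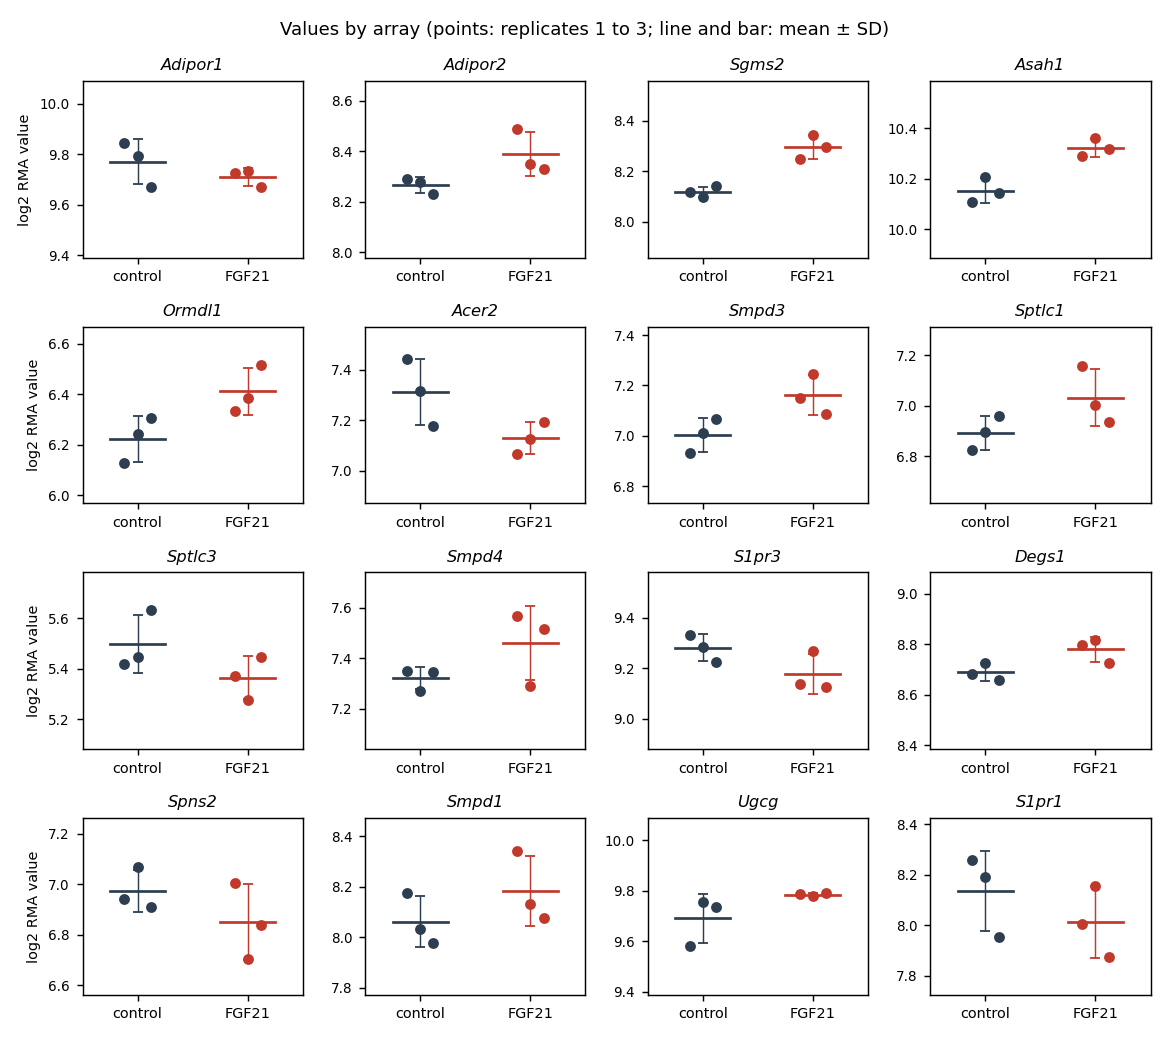
Log2 RMA values of the 16 members given by array, with points for replicates 1 to 3 of each group, a line at the mean and a bar of 1 SD; every panel spans the same height. Sgms2, Asah1, Ormdl1, Smpd3, Adipor2 and Ugcg show 3 FGF21 points above all 3 control points, and the other 10 panels overlap.

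Ceramide also leaves the pool by glucosylation and phosphorylation. Ugcg, the glucosylceramide synthase, read 9.79, 9.78 and 9.79 with FGF21 and 9.58, 9.76 and 9.74 without. The FGF21 arrays lay together just above the controls, of which replicate 1 was low, and the difference was 0.09 ± 0.07 (SE, limma p of 0.195), or 0.0394 without control replicate 1. Cerk, the ceramide kinase, differed by 0.10 (limma p of 0.252).

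At the next step of the glucosylceramide branch, B4galt5 and B4galt6, which are not among the 37 genes, had larger differences than any member in the row used. A second, dimmer row of the member Sgpp1 differed by 0.40. B4galt6, a lactosylceramide synthase gene, read 8.57, 8.67 and 8.66 with FGF21 and 8.41, 8.35 and 8.26 without, with no overlap. The difference was 0.30 ± 0.07 (SE, limma p of 0.00148, adjusted p of 0.191), a fold of 1.23 with a 95% interval of 1.11 to 1.36. B4galt5, the other lactosylceramide synthase gene, read 9.14, 9.34 and 9.23 against 9.02, 9.05 and 8.85, a difference of 0.27 ± 0.08 (SE, limma p of 0.00766, adjusted p of 0.270). Both kept an unadjusted p under 0.05 in each of the 16 alternative settings run. St3gal5 and B4galnt1, which build gangliosides from lactosylceramide, differed by 0.01 and -0.09.

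**Figure D4:**
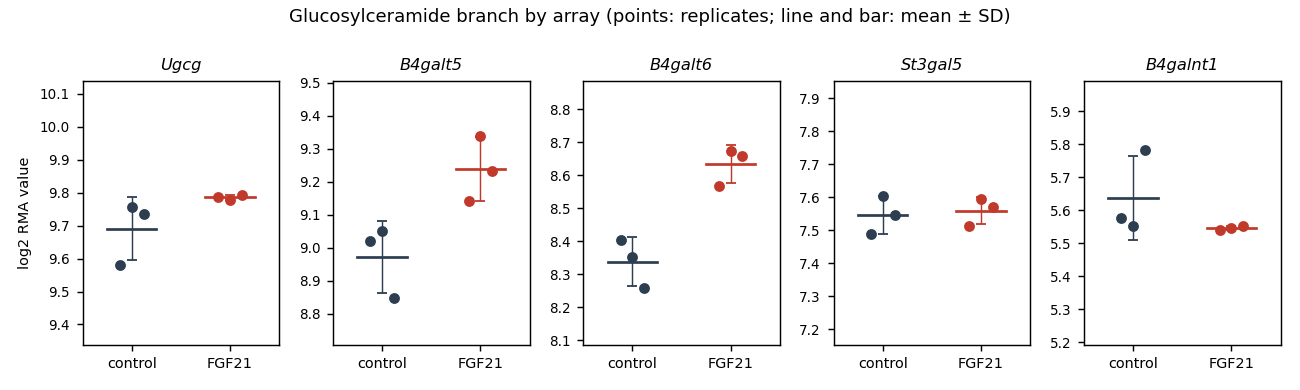
Log2 RMA values by array for the glucosylceramide synthase gene Ugcg, the lactosylceramide synthase genes B4galt5 and B4galt6, and the ganglioside genes St3gal5 and B4galnt1; points are replicates, with the mean and 1 SD. In B4galt5 and B4galt6 all 3 FGF21 arrays lie above all 3 controls, by 0.27 and 0.30 on average, while St3gal5 overlaps.

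Beyond the 37 genes, 42 other sphingolipid genes were looked up and 38 had a row. Of these, 18 were higher and 20 lower, with a median of -0.02, and 5 had an unadjusted p under 0.05 (13.2%, against 11.7% of all genes). The 2 higher genes were B4galt5 and B4galt6 (5.26%, against 6.59%), and the 3 lower ones Sgpp2, S1pr5 and Plpp3 (7.89%, against 5.11%). Adjusted over all genes, limma called 0 of the 38.

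The 4 members that make or break down S1P had differences between -0.07 and 0.06. Of the other phosphatase genes looked up, Sgpp2 and Plpp3 had larger differences, both lower. Plpp1 and Plpp2 were higher, by 0.14 and 0.06, with overlapping groups. Sphk1, the inducible kinase, was dim and differed by -0.07, and Sphk2, the other kinase, by 0.06. Sgpl1, the lyase that ends the pathway, had means of 8.80 ± 0.0382 (SD, n = 3) under FGF21 and 8.80 ± 0.0441 in controls, and its 95% interval ran from -0.14 to 0.14. Sgpp1, a phosphatase of S1P, differed by 0.05 in the row used and by 0.40 in a second, dimmer row. Its homologue Sgpp2 was dim, at 5.15, 5.43 and 5.20 with FGF21 and 5.51, 5.57 and 5.57 without. All 3 FGF21 arrays of Sgpp2 lay below the controls, by -0.29 ± 0.08 (SE, limma p of 0.00543, adjusted p of 0.250), with an unadjusted p under 0.05 in each of the 15 alternative settings that held the gene. Plpp3, a membrane phosphatase that also removes S1P, differed by -0.18 (limma p of 0.0499) with no overlap, or by -0.116 without control replicate 1.

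The S1P exporter and receptor genes were lower with FGF21 in 4 of 4 cases, where 52.2% of all genes were lower, but none had an unadjusted p under 0.05. S1pr3, the receptor known from smooth muscle and fibroblasts, read 9.14, 9.27 and 9.13 with FGF21 and 9.33, 9.29 and 9.23 without. Its groups overlap at FGF21 replicate 2, and the difference was -0.10 ± 0.07 (SE, limma p of 0.158). S1pr1, the main receptor of endothelium, read 8.01, 8.16 and 7.87 against 8.26, 8.19 and 7.95. Replicates spread widely in both groups, and the difference was -0.12 ± 0.10 (SE, limma p of 0.239), or -0.213 without control replicate 3 and -0.0537 without FGF21 replicate 3.

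Spns2, the transporter that exports S1P, read 7.01, 6.71 and 6.84 with FGF21 and 6.94, 7.07 and 6.91 without. FGF21 replicate 1 lay among the controls, and the difference was -0.12 ± 0.09 (SE, limma p of 0.185), or -0.201 without FGF21 replicate 1 and -0.0502 without FGF21 replicate 2. S1pr2, another receptor gene, differed by -0.08. Of the remaining receptor genes, S1pr5 read 6.62, 6.67 and 6.54 against 6.75, 6.89 and 6.77, a difference of -0.19 ± 0.07 (SE, limma p of 0.0195, adjusted p of 0.342) with no overlap. S1pr5 kept an unadjusted p under 0.05 in 4 of the 6 fits that leave out 1 array, the exceptions being those without FGF21 replicate 3 and without control replicate 2, and missed it with median centring. S1pr4 was dim and differed by -0.07. Thus 5 of 5 S1P receptor genes were lower, and they were so under median centring and under a second quantile normalization too; S1pr4 and S1pr5 were set beside the 3 receptors after the values were seen.

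Several of these genes are expressed in vessels, and vessel markers were lower with FGF21 too. Among 15 endothelial markers, 13 had lower means under FGF21; their median difference was -0.22, or -0.137 without FGF21 replicate 1, and 8 had an unadjusted p under 0.05 (53.3%, all lower, against 5.11% of all genes). With an ordinary equal-variance statistic that count was 1 of 15, while the share of all genes in either direction went from 11.7% to 9.07%. Of the 15, 14 stood above the median of every array. Their mean level ran from 7.18 to 7.35 with FGF21 and from 7.42 to 7.61 without. Erg, an endothelial transcription factor gene, differed by -0.35, the VEGF receptor gene Kdr by -0.61 and the cadherin gene Cdh5 by -0.44, with limma adjusted p of 0.191, 0.241 and 0.278. Of 10 smooth muscle and pericyte markers, 7 were lower (median difference -0.04), and their mean level ran from 8.67 to 8.78 with FGF21 and from 8.81 to 8.97 without. Of the 10, 3 had an unadjusted p under 0.05 in the lower direction (30.0%, against 5.11% of all genes) and 1 in the higher (10.0%, against 6.59%). The lower ones were the pericyte genes Kcnj8, Abcc9 and Rgs5, with differences of -0.65, -0.45 and -0.49, and the higher one was the smooth muscle myosin gene Myh11, at 0.16. The other 6 had differences between -0.17 for Cnn1 and 0.06 for Tagln. Cardiomyocyte markers had lower means in 8 of 10 cases (median difference -0.06). The median was -0.0102 without control replicate 1 and -0.0947 without control replicate 3. Their mean level was 11.67 in control replicate 1, 11.49 and 11.48 in the other controls, and 11.45 to 11.48 with FGF21. Groups did not overlap for 2 of the 10, both lower (20.0%, against 8.14% of all genes). Fibroblast markers had lower means in 6 of 10 (median difference -0.01, or 0.0212 with median centring). Groups did not overlap for 1 higher and 1 lower fibroblast marker (10.0% each, against 8.99% and 8.14% of all genes). None of these 20 cardiomyocyte and fibroblast markers had an unadjusted p under 0.05. Leukocyte markers had lower means in 6 of 10. At an unadjusted p under 0.05, 1 was higher (10.0%, against 6.59% of all genes) and 1 lower (10.0%, against 5.11%). The part of these cells in the S1P receptor values was not tested, and fewer cells of a type cannot be told apart from less RNA per cell.

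**Figure D5:**
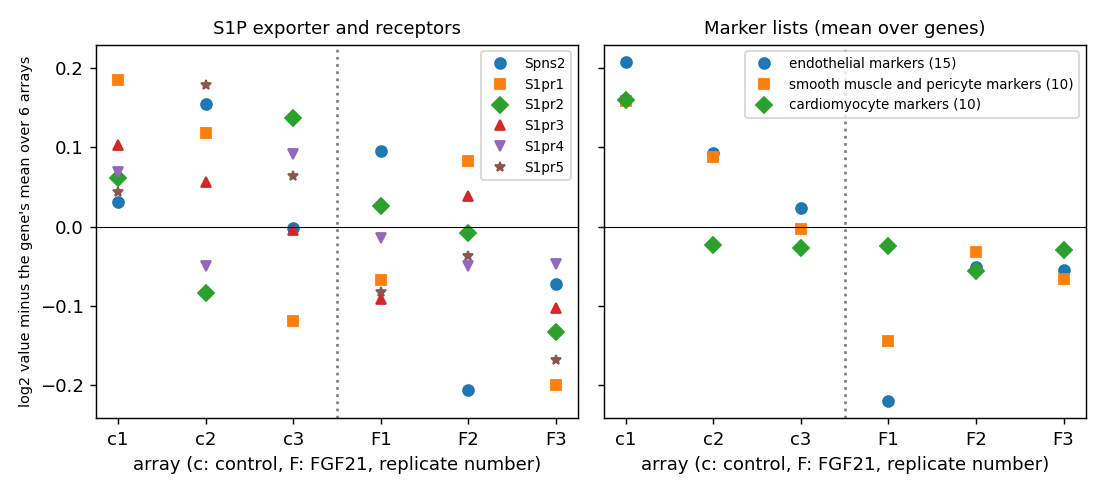
Log2 value of each array minus the gene's mean over the 6 arrays, for the S1P exporter and receptor genes (left) and for the mean of 3 marker lists (right); c1 to c3 are controls and F1 to F3 FGF21 replicates. S1pr5 lies above 0 in all controls and below 0 in all FGF21 arrays, the other S1P genes cross 0 within at least 1 group, and the endothelial mean is lowest in FGF21 replicate 1 and highest in control replicate 1.

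The adiponectin receptors are membrane proteins that couple adiponectin to AMPK and PPAR-alpha signalling. Adipor1 read 9.73, 9.73 and 9.67 with FGF21 and 9.85, 9.79 and 9.67 without. The groups overlap, each with a lowest array at 9.67, and the difference was -0.06 ± 0.07 (SE, limma p of 0.398, 95% interval -0.21 to 0.09), or -0.0223 without control replicate 1 and -0.109 without control replicate 3. Adipor2 read 8.49, 8.35 and 8.33 against 8.29, 8.28 and 8.23, with no overlap, and differed by 0.12 ± 0.07 (SE, limma p of 0.0973, adjusted p of 0.510). After a second quantile normalization the Adipor2 difference was 0.0604, and without FGF21 replicate 1 it was 0.073.

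Within each array, the 2 receptor values could be set against each other. Adipor2 minus Adipor1 came to -1.24, -1.38 and -1.34 under FGF21, against -1.56, -1.51 and -1.44 for controls, so the gap was smaller with FGF21 by 0.18 on average. The groups do not overlap, and an exact two-sided permutation test gave p = 0.1, the smallest that 3 against 3 arrays allow. The offset itself depends on the probes and says nothing of which receptor is more abundant.

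Other genes of adiponectin action showed no common direction. Of 20 looked up, 18 had a row, 10 higher and 8 lower, with a median of 0.02, and 1 had an unadjusted p under 0.05 (5.56%, against 11.7% of all genes). This was Ppara, the fatty acid receptor PPAR-alpha, at 5.92, 6.33 and 5.96 with FGF21 and 6.27, 6.35 and 6.35 without. FGF21 replicate 2 lay among the controls, and the difference was -0.25 ± 0.10 (SE, limma p of 0.0361, adjusted p of 0.392), or -0.379 without FGF21 replicate 2 and -0.174 without FGF21 replicate 1. Ppara kept an unadjusted p under 0.05 in 7 of the 16 alternatives. Among the 6 fits that leave out 1 array it did so in 1, that without FGF21 replicate 2. Appl1, the adaptor that binds the receptors, differed by 0.09. Cdh13, the T-cadherin that binds adiponectin, differed by -0.12, or by 0.0573 without control replicate 1 and -0.268 without control replicate 3. Control replicate 1 read 8.74 against 8.34 and 8.09 in the other controls.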

How the data were processed

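The authors deposited 1 table of log2 values for 6 arrays, made by RMA (affy in R 3.2.2, per the submitters' processing notes). For chip definition and build, the sources used here give nothing. Of 41345 rows, 23521 had 1 symbol in the platform annotation, 1814 several and 16010 none; this left 22180 genes. RMA equalises arrays, so a shift shared by most genes may be lost. FGF21 and control were compared by limma 3.58.1 (R 4.3.3; functions lmFit and eBayes, two-sided, no covariate), with Benjamini-Hochberg adjustment over all genes at 0.05. The fit was tested on simulated data. The members and lists were chosen with earlier results of these data known. Values by array are given for both adiponectin receptors and the 14 other members of smallest p, and for some others named beside them; of other pathway genes, those under an unadjusted p of 0.05, up to 6 a list, and of markers up to 3 a list. Cers3, Myh11, Cnn1, Tagln, St3gal5, B4galnt1, S1pr4, Plpp1, Plpp2, Appl1 and Cdh13 were named after their values were seen. Alternatives were a replicate block, leaving out each array, all rows, the mean of a gene's rows, 2 filters on dim genes, 2 scalings, another prior, array weights and an ordinary statistic. The number of arrays limits the precision.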

Additional observations from a re-analysis of the deposited data

How the results depend on the processing

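Across the 16 alternatives, 0 members passed an adjusted p of 0.05. None of the 16 members given by array changed sign, but 14 of them were picked for the smallest p. Several alternatives, such as the ordinary statistic, also leave the difference itself unchanged. Of the members not given by array, some changed sign, such as Cers5 (same sign in 11 of 16) and Sgpl1 (12 of 16). Others did not, such as Sptlc2 (16 of 16). Other genes passed in some alternatives, at most 58 of 11090, with genes below the median left out. The main fit had 5 members at an unadjusted p under 0.05, beside 11.7% of all genes. The count became 3 with all rows in the fit (9.07% of all genes) and 2 with an ordinary statistic (9.07%). With array weights it was 3 as well, though the share of all genes was 13.2%. With an array left out the count ran from 1, without FGF21 replicate 2 (7.71% of all genes), to 6. The share of all genes changed between these fits too, so the counts do not describe the members alone. The members' median of 0.03 was 0.0555 with genes below the median left out, where the median of all genes was 0.036. It was 0.0506 with a gene's rows averaged and 0.0676 with median centring, where the median of all genes was 0.0305. It was 0.00156 with quantile normalization again, and with an array left out it ran from 0.00419 to 0.0443. The members with groups that do not overlap ran from 10 to 14 with an array left out, when fewer arrays are compared and 24.0% to 32.8% of all genes do so. Arrays of 1 replicate number had deviations correlated at 0.103, 0.158 and 0.00653, and arrays of different numbers at -0.16 to 0.0416. These values do not settle whether replicate numbers pair the arrays. With the replicate block, 3 members had an unadjusted p under 0.05, and 13.1% of all genes. The cause of these moves was not tested.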

Other observations

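Sgpp1, the S1P phosphatase gene, had a second, dimmer row that read 5.58, 6.05 and 6.15 with FGF21 and 5.56, 5.61 and 5.42 without, a difference of 0.40 ± 0.13 (SE, limma p of 0.0131). The row used for the gene, which is the brighter one, differed by 0.05, so the rows disagree in size. FGF21 replicate 1 lay among the controls in the second row. With its rows averaged, Sgpp1 differed by 0.226.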
